A study of Neurospora crassa with 34 samples.

Results

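OY329 is a strain of the filamentous fungus *Neurospora crassa* in which a segment from the right arm of linkage group (LG) VI has been inserted into the right arm of LG III. Its poly-A+ mRNA was described here from 2 count files, replicates 1 and 3, of the 16 mRNA-seq count files of a series of 34 samples. They were compared with the 12 count files of 6 other strains with chromosomal rearrangements, 2 libraries each, and 2 files of OY329 lacking *set-7* were left out. OY329 is *mat A*; T(VI->III). The other strains were ALS159 (*mat A*; T(IV->VI)), AR16 (*mat a*; In(IL->IR)), OY337 (*mat A*; T(II->IV); *al-2*), OY350 (*mat A*; T(VIL->IR)), UK2-32 (*mat A*; T(IVR->VL)) and UK3-41 (*mat A*; *inl*; T(VR)). Each strain is 1 isolate, so a difference between OY329 and the rest covers everything in which that isolate differs, and the rearrangement cannot be told apart from the rest of its genotype. All were grown from conidia in shaken Vogel's medium with 1.5% sucrose for 16 h at 32 °C, and the labels call the tissue germinated conidia. A wild-type strain was not analysed here, so that "higher" and "lower" are always relative to the mean of the 6 other rearranged strains. ALS159 also carries a displaced right arm of LG VI.

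H3K27 methylation, placed in *N. crassa* by the SET-7 subunit of Polycomb Repressive Complex 2 (PRC2), marks silent genes, many of them near chromosome ends. The study followed how moving a chromosome end changes that mark and the genes beneath it, and its table of genes in domains that gained or lost H3K27me2/3 lists 35 gained and 16 lost genes for OY329. Most of the transcriptome lies outside those lists. Blue light, sensed by the White Collar Complex, turns on carotenoid synthesis, photoreceptor and circadian output genes. Asexual development makes conidia on aerial hyphae through a cascade of regulators that act in air rather than in shaken liquid.

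The libraries differed in ways that bear on every value below. OY329 replicate 1 had 27994440 reads on genes and an 8-nt index, replicate 3 had 6435058 reads and a 6-nt index, and the 12 other libraries had 7321698 to 8876052 reads and 6-nt indexes. Reads assigned to no gene made up 10.0% and 26.3% of the counted reads in OY329 replicates 1 and 3, against 5.61% to 18.1% in the others. The OY329 replicates agreed less well than those of any other strain, with a Pearson correlation of 0.956 across 8170 genes in log2 CPM, against 0.971 to 0.990 for the other strains. Replicate 1 correlated as well with OY350 replicate 1 (0.956) as with replicate 3. The study describes its mRNA-seq libraries as biological duplicates, while the labels do not name separate cultures, and p-values measure the spread between these libraries. Of the other strains, ALS159 and UK3-41 stood furthest away, at 0.760 to 0.843 from the OY329 libraries. These 2 strains held more genes outside the range of the rest than OY329 did, with 1007 above and 1046 below in ALS159 and 1202 and 1158 in UK3-41, against 648 and 895 in OY329. Results are therefore also given with both left out. UK2-32, listed as *mat A*, had 0 reads of the *mat A* gene *matA-1* in both libraries, so that the libraries labelled UK2-32 went against that part of their label. Without UK2-32 in the mean there were 2340 genes higher in OY329 and 1965 genes lower in OY329, with 878 unlisted genes higher in both OY329 libraries and 1091 unlisted genes lower in both OY329 libraries. For the last 2 counts a gene had to clear fewer than 12 libraries, so more genes could meet the rule.

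A large part of the transcriptome differed in OY329. At an adjusted p under 0.05 (edgeR's quasi-likelihood test), 2139 of 8170 tested genes (26.2%) were higher in OY329 and 1763 (21.6%) were lower. Without OY329 replicate 1, the only library with the 8-nt index, 1759 genes were higher and 1447 lower. With ALS159 and UK3-41 left out of the mean, 1264 were higher and 1205 lower. List counts given below for this or another alternative fit are to be read beside the counts of that fit, not beside 26.2% and 21.6%. The fold changes were not shifted as a whole, with a median log2 fold change of 0.04 and quartiles of −0.43 and 0.55. Scaling by total counts alone lowered this median to −0.19 and gave 1400 genes higher and 2584 lower, which turned the share of calls that were higher to 35.1%, against 54.8%.

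**Figure D1:**
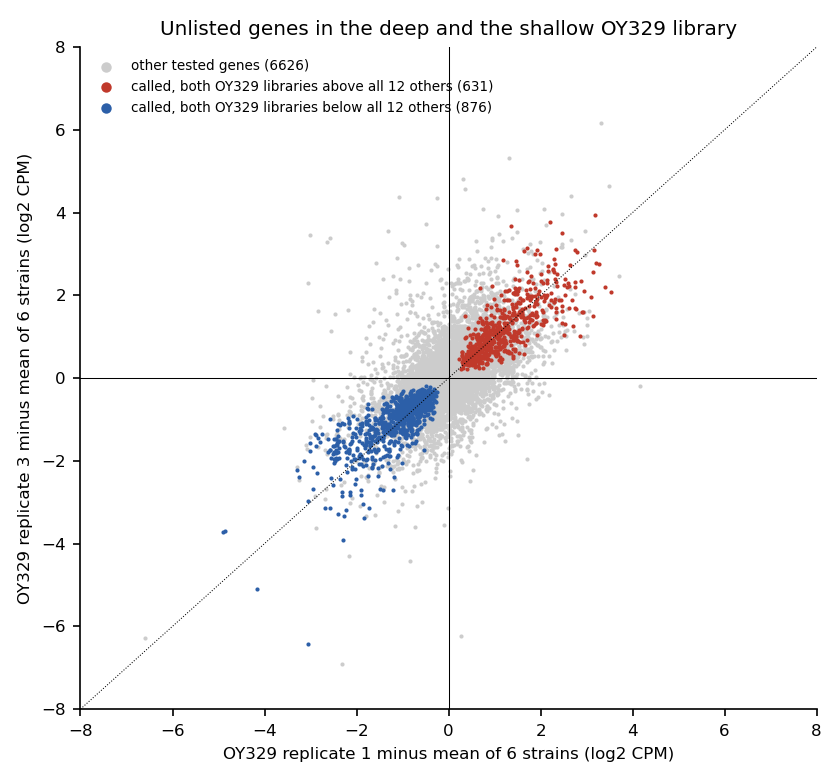
Each point is 1 of 8133 tested genes outside the OY329 gain and loss lists. The horizontal axis is OY329 replicate 1 and the vertical axis OY329 replicate 3, each as log2 CPM minus the mean of the 6 other strains, with 631 red genes above and 876 blue genes below all 12 other libraries. The points spread along the dotted line of equality, with grey points far from it where the 2 libraries disagreed.

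The description below turns on genes that held in both OY329 libraries, meaning that they were called and that both OY329 libraries lay on the same side of all 12 others. Among the 8133 tested genes that are not listed for OY329 in the gain and loss table, 631 (7.76%) held higher and 876 (10.8%) held lower. When each OY329 library was tested on its own against the other strains, 507 of the 631 and 656 of the 876 were called both times. A change of at least 2-fold in both libraries was met by 264 of the higher and 310 of the lower genes, and at least 4-fold by 42 and 34. The deep and the shallow library deviated from the other strains together, with a Pearson correlation of 0.66 between their log2 differences across genes, which share the 12 other libraries in their subtraction and are not independent replicates. Of the genes listed for OY329, 27 gained and 10 lost genes were tested. Among the gained genes 3 held higher and 5 held lower, and among the lost genes 3 held higher.

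Carotenoid and blue-light genes stood among the highest of the annotated genes. *al-2*, whose product carries out phytoene synthesis and lycopene cyclisation, had 4299 and 5135 CPM in OY329, against 145 to 2583 CPM (median 957) in the other strains. Both OY329 libraries lay above all 12 others, with a log2 fold change of 2.42 ± 0.17 (SE, adjusted p = 4.40e-05), and the gene was called against each of the 6 strains. Among the other strains the order of *al-2* was OY350 (2583 and 2196 CPM), UK2-32 (1746 and 2077), AR16 (1493 and 936), OY337, whose genotype carries *al-2* (977 and 821), ALS159 (473 and 645) and UK3-41 (145 and 192), in which OY350 and UK2-32 lay close together and AR16 and OY337 overlapped. *bli-3* and *bli-4* were found as blue-light-induced genes. *bli-3* had 1615 and 597 CPM in OY329, against 13.3 to 454 CPM (median 248) in the other strains, which gave a log2 fold change of 2.94 ± 0.32 (SE, adjusted p = 0.000153). For *bli-4* the values were 1342 and 1594 CPM in OY329, against 9.80 to 1052 CPM (median 382) in the other strains, with 2.82 ± 0.37 (SE, adjusted p = 0.000344). The 2 OY329 libraries of *bli-3* differed from each other far more than those of *bli-4*, but neither gene overlapped with the other strains. *bli-3* was called against 4 of the 6 strains and *bli-4* against 3. *csp-1*, a repressor in the circadian output pathway, had 1467 and 2094 CPM in OY329, against 124 to 1064 CPM (median 447) in the other strains, which gave 2.24 ± 0.27 (SE, adjusted p = 0.00025) on the log2 scale. It was called against 4 of the 6 strains. *al-3*, which makes the geranylgeranyl diphosphate from which carotenoids are built, moved less, with 286 and 352 CPM in OY329, against 129 to 255 CPM (median 173) in the other strains, and a log2 fold change of 0.81 ± 0.20 (SE, adjusted p = 0.00774). *al-3* was called against 3 of the 6 strains. Without OY329 replicate 3 its call was lost (adjusted p = 0.0683).

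Of 27 tested light and clock genes, 14 were called higher and 0 lower (2 had an unadjusted p under 0.05 and DESeq2 called 2), beside 26.2% higher and 21.6% lower among all tested genes, and 3 held higher. The list median was 1.01, against 0.04 over all genes, with 0.39 in replicate 1 and 1.06 in replicate 3. The size of this shift came partly from 2 of the strains it was set against: without ALS159 and UK3-41 the median was 0.27, with 8 genes called higher and 0 lower. Without OY329 replicate 3, 10 were called higher and 3 lower, and with a replicate block, in which replicate 3 has no partner, 7 and 3. Photoreceptor genes were unequal in the 2 libraries. *vvd*, whose product dampens the light response, had 1391 and 4171 CPM in OY329, against 75.3 to 2044 CPM (median 1035) in the other strains, so that replicate 1 lay inside the range of the others. *wc-1*, which encodes the blue-light receptor of the White Collar Complex, had 259 and 619 CPM in OY329, against 110.3 to 326 CPM (median 199.8) in the other strains, and again only replicate 3 lay above the range. Both genes were called, at log2 fold changes of 1.98 and 1.21, but without replicate 3 the call of *wc-1* was lost (adjusted p = 0.0549). *frq*, the central clock gene, had 111 and 229.6 CPM in OY329, against 89.5 to 258 CPM (median 185) in the other strains, and was not called (log2 fold change 0.02, adjusted p = 0.965), since replicate 1 lay below the mean of the other strains and replicate 3 above it. All 5 carotenoid genes had fold changes above 0, and 4 were called, but 2 without OY329 replicate 3 and 2 without ALS159 and UK3-41. The light under which cultures were harvested is not given in the labels, and its part in these values was not tested.

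**Figure D2:**
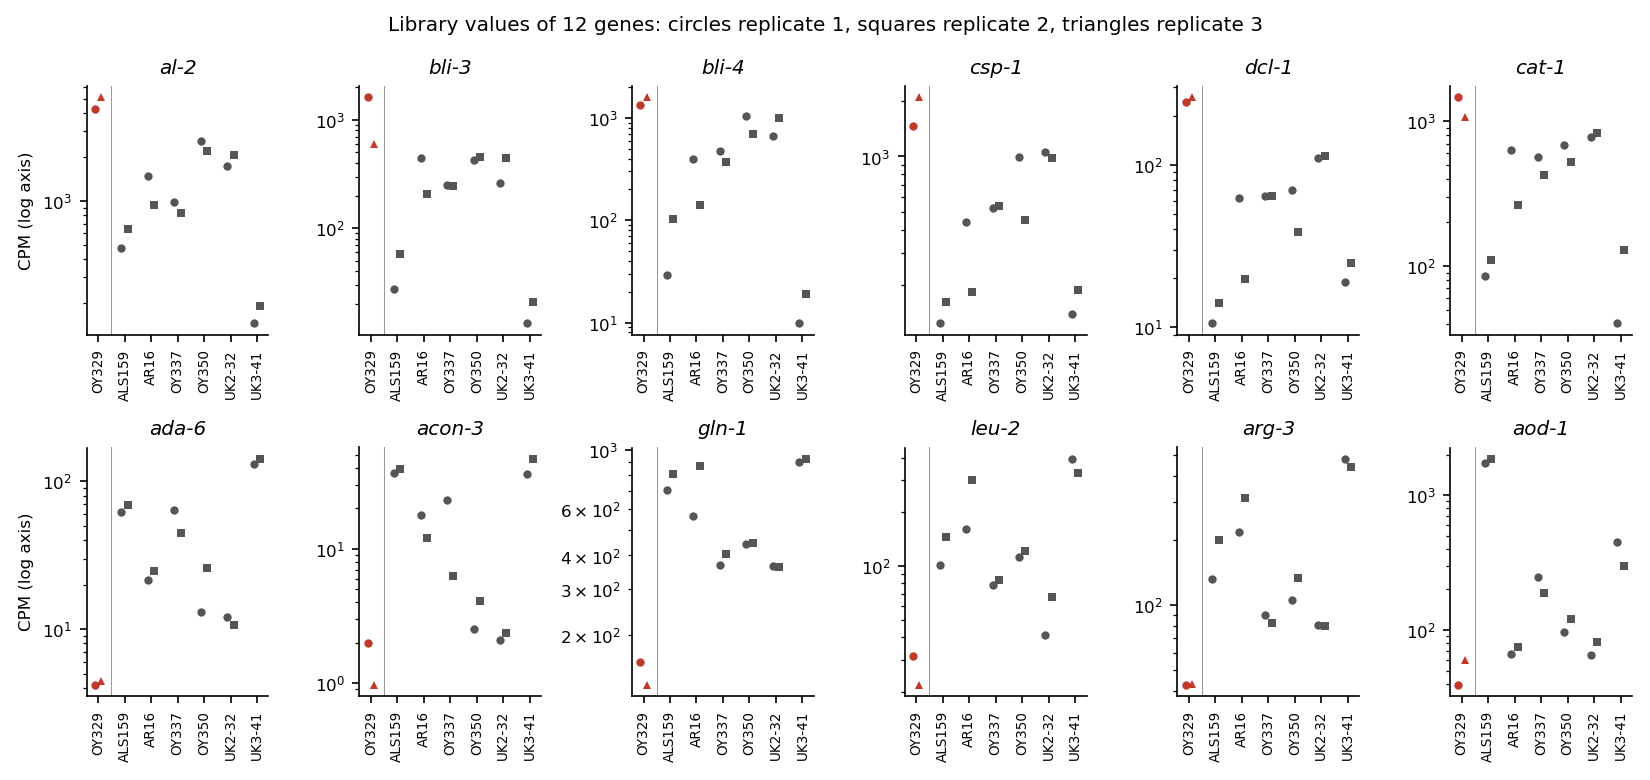
CPM on log axes in each of the 14 libraries, by strain with OY329 at the left in red, for 6 genes that held higher (top row) and 6 that held lower (bottom row) in OY329. Circles, squares and triangles are replicates 1, 2 and 3. In all 12 panels the red symbols lie outside the range of the other strains, and OY350 or UK2-32 is often nearest to them, with UK3-41 or ALS159 at the far end.

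Genes of RNA silencing and of peroxide removal also held higher. *dcl-1*, a Dicer gene of the quelling pathway, had 243 and 260.3 CPM in OY329, against 10.5 to 113 CPM (median 50.6) in the other strains, and a log2 fold change of 2.64 ± 0.27 (SE, adjusted p = 0.000115). This gene overlaps NCU08269 in the RefSeq annotation, and whether the counting used strand is not given in the sources used here, so reads of the pair may not be separated. *qip*, an exonuclease gene of the same pathway that overlaps NCU00075, had 25.3 and 27.0 CPM in OY329, against 11.8 to 25.2 CPM (median 14.1) in the other strains, with 0.79 ± 0.11 (SE, adjusted p = 0.000489). In the list of quelling and meiotic silencing genes 4 of 9 tested were called higher and 0 lower (1 had an unadjusted p under 0.05 and DESeq2 called 0). Over all tested genes 26.2% were called higher and 21.6% lower. *cat-1*, the catalase gene known from conidia, had 1459 and 1068 CPM in OY329, against 40.1 to 832 CPM (median 473) in the other strains, which gave 2.03 ± 0.32 (SE, adjusted p = 0.000824). It was called against 3 of the 6 strains. *cat-2*, encoding a catalase-peroxidase, had 904 and 1231 CPM in OY329, against 282 to 633 CPM (median 533) in the other strains, and was called against all 6 strains (log2 fold change 1.13 ± 0.14, SE, adjusted p = 0.000324). Of 9 genes for catalases, superoxide dismutases and related oxidases, 6 were called higher and 0 lower (none before adjustment, and 0 by DESeq2), with a list median of 1.13, and of 0.72 without ALS159 and UK3-41.

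Enzymes for plant cell walls, which the fungus secretes when it lives on cellulose, were mostly higher although the medium held sucrose. Of 35 tested, 20 were called higher and 0 lower (none before adjustment, and 0 by DESeq2), and 6 held higher. Over all tested genes 26.2% were called higher and 21.6% lower, and 7.8% held higher. The list is not separate from the moved LG VI segment described below, where 21% of tested genes held higher. At least *gh45-1*, which held, lies in that segment. In addition, 1 gene of the list is on the OY329 gain and loss lists. Counts without the segment were not made. The list medians were 0.61 in replicate 1 and 0.79 in replicate 3. Without ALS159 and UK3-41, 10 were called higher and 1 lower, and without OY329 replicate 1, 13 and 0. Read numbers were low, with a median over the list of 4.86 CPM in the other strains. *gh3-5*, a glycoside hydrolase gene, had 89.9 and 75.6 CPM in OY329, against 9.37 to 54.3 CPM (median 29.0) in the other strains, called against all 6 strains with 1.61 ± 0.19 (SE, adjusted p = 0.000195). *gh6-2*, a cellobiohydrolase gene, had 18.6 and 16.1 CPM in OY329, against 5.71 to 10.4 CPM (median 8.21) in the other strains. *cdt-1*, a cellodextrin transporter gene, had 187 and 285 CPM in OY329, against 7.77 to 327 CPM (median 69.4) in the other strains. The OY329 values of *gh6-2* cleared the other strains and those of *cdt-1* did not, although both were called. In glycolysis and ethanol formation 8 of 10 genes were called higher, but 1 without ALS159 and UK3-41 and 2 without OY329 replicate 3, and only *fba* (fructose-bisphosphate aldolase) held, with 7587 and 4667 CPM in OY329, against 1592 to 4585 CPM (median 3022) in the other strains. Its call was lost without OY329 replicate 1 (adjusted p = 0.0545).

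Most of the highest-ranked genes have no symbol. NCU09023 on LG VII had 15.7 and 26.6 CPM in OY329, against 0 to 7.72 CPM (median 1.90) in the other strains, the largest rise among the genes outside the moved segment that were named by rank (log2 fold change 4.06 ± 0.28, SE, adjusted p = 4.40e-05). It overlaps NCU09022 in RefSeq. NCU08168, also on LG VII, had 195 and 401 CPM in OY329, against 3.55 to 116 CPM (median 41.1) in the other strains, with a log2 fold change of 3.05 ± 0.24 (SE, adjusted p = 5.12e-05). Both genes were called against each of the 6 strains. NCU05595 on LG VI had 16.8 and 11.9 CPM in OY329, against 0.106 to 6.33 CPM (median 2.09) in the other strains. NCU01112 on LG V had 21.3 and 14.2 CPM in OY329, against 0.213 to 13.6 CPM (median 3.14) in the other strains. NCU02932 on LG I had 732 and 916 CPM in OY329, against 16.5 to 293 CPM (median 142) in the other strains. NCU02932 was also called against 5 of the 6 strains. NCU06305 on LG IV had 1582 and 2728 CPM in OY329, against 29.1 to 991 CPM (median 543) in the other strains. NCU02526 on LG I had 1508 and 1689.6 CPM in OY329, against 52.7 to 779.7 CPM (median 441) in the other strains. These 7 genes cleared the whole range of the other strains, with log2 fold changes of 2.37 to 4.06. The remaining symbols among the highest were *bdp-1* (log2 fold change 2.47), *tah-3* (1.94), *mig-6* (1.88) and the glucanosyltransferase gene *gel-1* (1.84). Of 101 genes named by rule here, 25 overlap another RefSeq gene, so that reads of the pair may not be separated. They include *bli-3*, *al-3*, *bdp-1*, *mig-6*, *gh3-5*, *pho-4*, *leu-2*, *arg-3*, *tim54*, *tim44*, *nde-1*, *cia84* and *hsp30*.

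The lowest of the annotated genes were regulators of asexual development and a phosphate permease. *ada-6*, a transcription factor gene whose mutants are altered in development, had 4.19 and 4.47 CPM in OY329, against 10.6 to 142 CPM (median 35.2) in the other strains, and was called against all 6 strains with a log2 fold change of −3.10 ± 0.28 (SE, adjusted p = 6.69e-05). *acon-3*, which conidiation needs, had 1.98 and 0.972 CPM in OY329, against 2.08 to 46.6 CPM (median 14.9) in the other strains, with −2.79 ± 0.49 (SE, adjusted p = 0.00135). OY329 lay only just below the lowest of the other libraries for *acon-3*, and well below it for *ada-6*. *pho-4*, a phosphate permease gene, had 0.609 and 0.389 CPM in OY329, against 0.7995 to 187 CPM (median 2.19) in the other strains, close to the limit of detection (16 and 2 reads). *acon-3* was called against 4 of the 6 strains and *pho-4* against 3. The list of asexual development as a whole did not stand out, with 8 of 27 genes called higher and 7 lower, beside 26.2% and 21.6% over all genes. *con-8*, a conidiation gene, had 1204 and 1814 CPM in OY329, against 1.81 to 1315 CPM (median 369) in the other strains. *fl*, the regulator that commits aerial hyphae to conidiation, had 101 and 149.9 CPM in OY329, against 68.4 to 289.6 CPM in the others. Summed over 9 genes of conidia and aerial hyphae the level was 3284 and 4297 CPM in OY329 replicates 1 and 3, against 398 to 16540 CPM in the others, with *con-13* at 0.152 and 0 CPM in OY329. Few genes set this sum. Most of it in OY329 came from *con-8* and *csp-1* (1467 and 2094 CPM). *eas* had 277 and 51.9 CPM in OY329 and up to 15589 CPM in the others. For such markers, fewer cells of a type and less RNA per cell cannot be told apart, and the part of cell types in the other results was not tested.

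Several nitrogen and amino acid genes held lower. The amino acid list as a whole was shifted down in replicate 3 but not in replicate 1. *gln-1*, which encodes a glutamine synthetase, had 159.5 and 130.2 CPM in OY329, against 362 to 924 CPM (median 504) in the other strains. The OY329 values were under the lowest of the other libraries in both replicates, and the gene was called against all 6 strains (log2 fold change −1.95 ± 0.18, SE, adjusted p = 7.31e-05). *leu-2*, of leucine synthesis, had 31.7 and 21.8 CPM in OY329, against 41.3 to 396 CPM (median 117) in the other strains, with −2.29 ± 0.30 (SE, adjusted p = 0.000344). *arg-3*, the large subunit of the arginine-specific carbamoyl phosphate synthetase, had 42.5 and 42.8 CPM in OY329, against 80.0 to 479 CPM (median 133) in the other strains, and −1.91 ± 0.20 (SE, adjusted p = 0.000137). The gene of the small subunit, *arg-2*, also fell (−1.55), although OY329 replicate 1 overlapped with the others. *cys-9*, the thioredoxin reductase gene, had 42.5 and 45.1 CPM in OY329, against 79.1 to 195 CPM (median 115) in the other strains. *lys-6*, of lysine synthesis, had 31.8 and 23.1 CPM in OY329, against 37.7 to 159 CPM (median 86.5) in the other strains. Both held lower, with log2 fold changes of −1.52 and −1.52. Of 14 tested genes for nitrogen assimilation and control 6 were called lower and 2 higher, and 2 held lower (14.3%). That list had medians of −0.48 in replicate 1 and −0.54 in replicate 3. Without ALS159 and UK3-41, 3 of these genes were called lower and 1 higher. Over 56 tested amino acid synthesis genes 21 were called lower and 9 higher, and 7 held lower (12.5%) and 0 higher. Among all tested genes 21.6% were called lower and 26.2% higher, and 10.8% held lower and 7.8% higher. The libraries differed for the amino acid list, with a median of 0.00 in replicate 1 and −0.50 in replicate 3. In that list 12 genes were called lower and 4 higher without ALS159 and UK3-41. Without OY329 replicate 1, 25 were called lower and 4 higher, and without replicate 3, 14 and 11. In nucleotide synthesis *ad-7* (−1.64) and *pyr-3* (−1.59) held lower while *ad-5* (0.72) held higher. *nit-10*, a nitrate transporter gene, lay just under the range of the others, with 84.4 and 100.5 CPM in OY329, against 111 to 963 CPM (median 216) in the other strains, and lost its call without OY329 replicate 1 (adjusted p = 0.172) and without replicate 3 (adjusted p = 0.126).

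Genes of mitochondrial protein import, and several of the respiratory bypass, were lower in both libraries. Of 31 tested genes for import and mitochondrial chaperones, 17 were called lower and 0 higher (none before adjustment, and 0 by DESeq2), and 8 held lower. Over all tested genes 21.6% were called lower and 26.2% higher, and 10.8% held lower. The list medians were −0.50 in replicate 1 and −0.65 in replicate 3. *tim54*, of the inner membrane, had 7.54 and 11.3 CPM in OY329, against 17.8 to 55.4 CPM (median 26.2) in the other strains, with a log2 fold change of −1.77 ± 0.23 (SE, adjusted p = 0.000359) and calls against all 6 strains. *tim44*, which tethers the import motor, had 24.9 and 30.3 CPM in OY329, against 41.3 to 176 CPM (median 55.0) in the other strains. *tim23*, of the inner membrane channel, had 28.3 and 26.8 CPM in OY329, against 30.8 to 121 CPM (median 44.3) in the other strains. Both held lower, with log2 fold changes of −1.43 and −1.02. The chaperone gene *hsp60* had 62.4 and 44.9 CPM in OY329, against 79.5 to 533 CPM (median 125) in the other strains. The mitochondrial Hsp70 gene *hsp70-5* had 239.7 and 234 CPM in OY329, against 256 to 1275 CPM (median 525) in the other strains. These fell by 1.66 and 1.33 on the log2 scale, and were called against 4 and 5 of the 6 strains. Without ALS159 and UK3-41, 8 of the 31 genes were called lower and 0 higher, with a list median of −0.26.

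*aod-1*, the alternative oxidase that passes electrons to oxygen without cytochromes, had 39.1 and 60.1 CPM in OY329, against 64.6 to 1866 CPM (median 154) in the other strains. This gave a log2 fold change of −2.08 ± 0.24 (SE, adjusted p = 0.000195), and the other strains ranged widely, with ALS159 highest. *aod-2*, a transcription factor gene that *aod-1* expression needs, had 9.90 and 13.02 CPM in OY329, against 13.9 to 45.8 CPM (median 22.8) in the other strains. Among external NAD(P)H dehydrogenase genes, *nde-2* had 41.5 and 38.7 CPM in OY329, against 52.1 to 380.4 CPM (median 94.0) in the other strains. Another of them, *nde-1*, had 63.0 and 70.8 CPM in OY329, against 77.8 to 313 CPM (median 94.5) in the other strains. These 4 genes held lower, with log2 fold changes of −2.08, −1.11, −1.69 and −0.77. They were called against 4, 4, 4 and 2 of the 6 strains. Among all 8 genes of the list of alternative respiration 4 were called lower and 2 higher, beside 21.6% and 26.2% over all genes. Without ALS159 and UK3-41, 4 were called lower and 1 higher, and the list median was −0.23, against −0.73 with all 6 strains in the mean. *cyc-1*, for cytochrome c, was called lower (−2.47) with OY329 replicate 1 inside the range of the others. Complex I subunits went the other way by small steps: 12 of 31 were called higher and 1 lower, beside 26.2% and 21.6% over all genes. The lower one was an assembly factor gene, *cia84* (−0.79). Scaling by total counts moved the complex I median to −0.06, against 0.17 here, and left 0 of the genes called higher (1 at an unadjusted p under 0.05). The median of all genes moved to −0.19, so that the complex I median still lay 0.13 above it. The calls therefore depended on the scaling, and the direction relative to all genes did not. Without OY329 replicate 1, 6 were called higher and 1 lower.

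Genes of chromatin and DNA repair moved in both directions. *set-7*, the H3K27 methyltransferase gene, had 9.71 and 9.52 CPM in OY329, against 8.87 to 29.8 CPM (median 18.2) in the other strains, and was called lower (log2 fold change −0.81 ± 0.16, SE, adjusted p = 0.00215), although both OY329 libraries lay inside the range of the others. *hpo*, encoding heterochromatin protein 1, had 31.3 and 30.3 CPM in OY329, against 53.3 to 90.4 CPM (median 67.4) in the other strains, and was called against all 6 strains (−1.18 ± 0.14, SE, adjusted p = 0.000214). *hda-3*, a histone deacetylase gene, had 6.78 and 5.64 CPM in OY329, against 8.05 to 29.3 CPM (median 18.1) in the other strains. *dmm-1*, which limits the spread of DNA methylation, had 25.1 and 28.4 CPM in OY329, against 39.8 to 66.4 CPM (median 47.3) in the other strains. Both held lower, at −1.41 and −0.92. The SET domain gene *set-8* had 53.1 and 64.1 CPM in OY329, against 11.5 to 45.5 CPM (median 25.8) in the other strains, and held higher (1.14), as did *nst-5*, a sirtuin-type deacetylase gene that overlaps NCU00204 (1.02). Of 34 genes for PRC2, histone methylation and DNA methylation, 11 were called lower and 7 higher, beside 21.6% and 26.2% over all genes. Among 39 repair genes 13 were called lower and 10 higher, but 8 and 8 without OY329 replicate 1 and 8 and 5 without ALS159 and UK3-41. *msh6*, for mismatch recognition, had 31.4 and 31.9 CPM in OY329, against 51.4 to 77.6 CPM (median 57.6) in the other strains. *mus-51*, the Ku70 homologue, had 26.2 and 19.6 CPM in OY329, against 36.3 to 92.9 CPM (median 43.1) in the other strains. *mus-59* had the largest fall of the repair list (−1.43), and *csb* held higher (1.04).

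**Figure D3:**
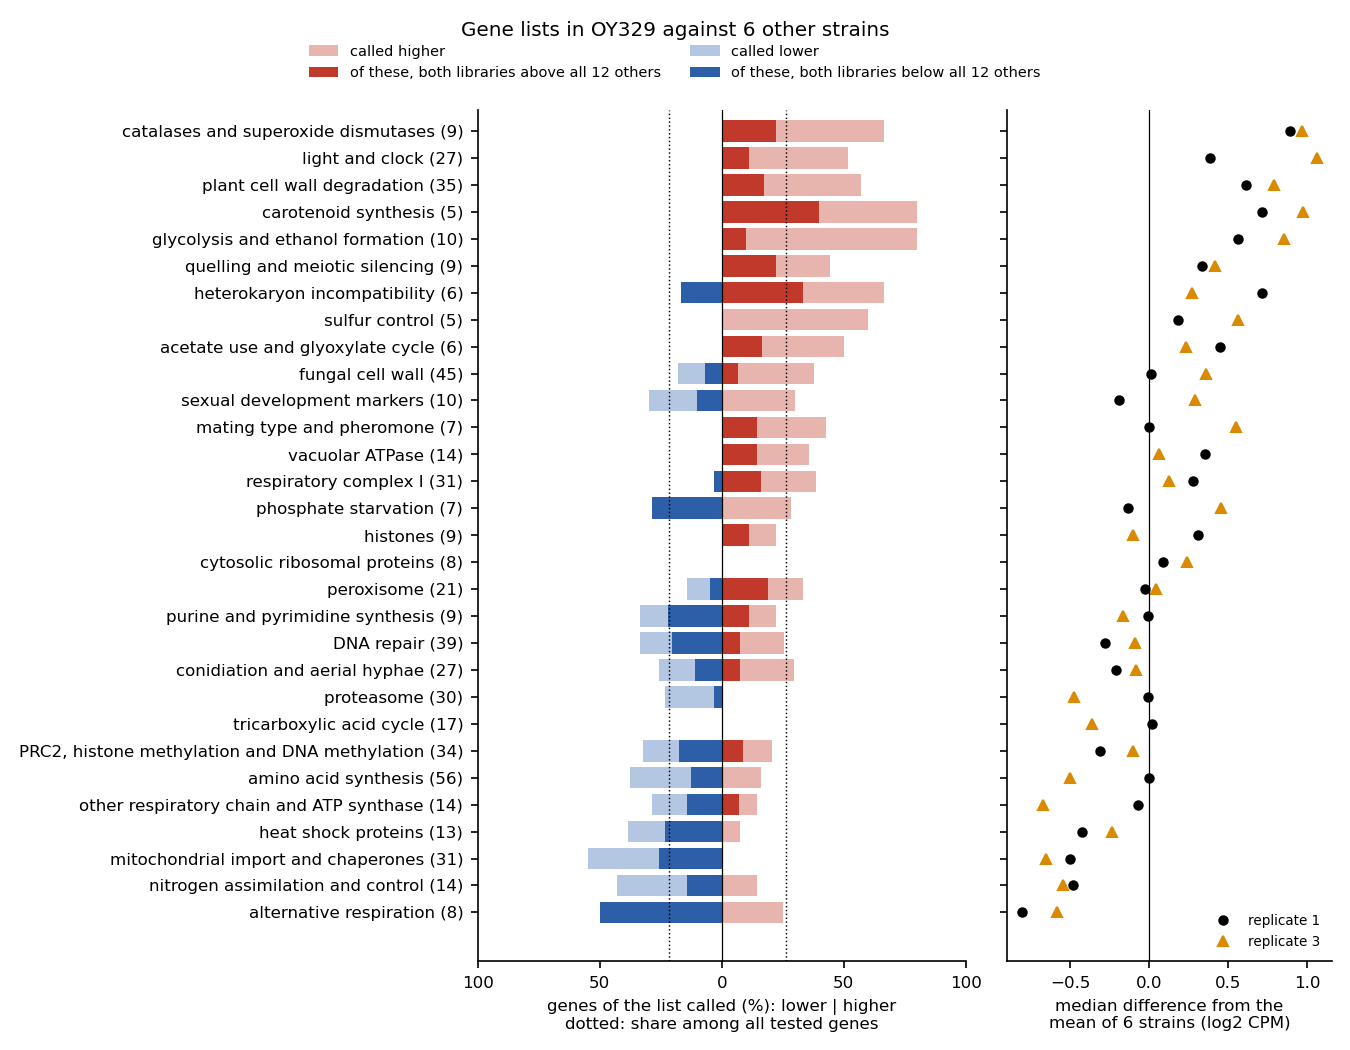
Left, share of the tested genes of each of 30 lists (number in brackets) that were called lower (blue, to the left) or higher (red, to the right) in OY329, with the genes that held in both libraries in the darker shade and dotted lines at the shares among all tested genes, 21.6% and 26.2%. Right, the median log2 difference of each list from the mean of the 6 other strains, in OY329 replicate 1 (circles) and replicate 3 (triangles).

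The lists in the plot were drawn from gene symbols, so that they hold only the annotated part of each pathway. Each count of the main fit below stands beside 26.2% called higher and 21.6% called lower over all tested genes. Counts from other fits do not. Without ALS159 and UK3-41, 1264 of 8170 tested genes were called higher and 1205 lower. Under scaling by total counts these were 1400 and 2584, and fits without an OY329 library had other shares again. Few genes were called among the cytosolic ribosomal proteins and the tricarboxylic acid cycle, with 0 of 8 and 0 of 17 genes called. At an unadjusted p under 0.05 the ribosomal list had 1 gene higher and the cycle 1 higher and 1 lower, and DESeq2 called 1 and 0. Without OY329 replicate 1, 4 genes of the cycle were called lower, and without replicate 3, 2 were called higher. Fungal cell wall genes had 17 of 45 called higher and 8 lower, but 7 and 4 without OY329 replicate 3 and 8 and 4 without ALS159 and UK3-41. Of these genes *chs-3*, a chitin synthase gene, fell against all 6 strains (−1.03). Proteasome genes had 7 of 30 called lower, close to the 21.6% over all genes. Their list median was −0.01 in OY329 replicate 1 and −0.47 in replicate 3. Heat shock genes had 5 of 13 called lower and 1 higher, beside 21.6% and 26.2% over all genes. Their list median was −0.42 in OY329 replicate 1 and −0.23 in replicate 3. Among those called lower was *hsp30*, with a log2 fold change of −1.26. The list shares *hsp60* and *hsp70-5* with that of mitochondrial import. Peroxisome genes had 7 of 21 called higher and 3 lower, with *pex11* (0.91), *pex31* (0.81) and *pex24* (0.82) among those that held higher. Vacuolar ATPase genes had 5 of 14 called higher, beside 26.2% over all genes, but 2 without OY329 replicate 1 and 1 under scaling by total counts, and *vma-13* held at 0.55. Scaling by total counts moved the median of all genes to −0.19, so list medians under it are given relative to that median. They were 0.94 for light, 0.76 for carotenoids, 0.81 for plant cell walls and 1.07 for catalases. For import the value was −0.54, for alternative respiration −0.77, for nitrogen −0.72 and for amino acids −0.29.

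The lowest-ranked genes without a symbol were nearly silent in OY329. NCU16729 on LG IV had 5 and 0 reads, or 0.190 and 0 CPM in OY329, against 2.93 to 16.1 CPM (median 7.30) in the other strains, and the 0 of replicate 3 allows up to 0.583 CPM. NCU10014 on LG VII had 8 and 5 reads, or 0.305 and 0.972 CPM in OY329, against 1.06 to 50.2 CPM (median 20.3) in the other strains. Both fell by more than 5 on the log2 scale (−5.40 and −5.08), a size that depends on the few reads in OY329. NCU04697 on LG VI had 0.762 and 1.94 CPM in OY329, against 3.62 to 732 CPM (median 11.9) in the other strains, where ALS159 alone held the top of the range. NCU09168 on LG III had 4.00 and 0.194 CPM in OY329, against 4.44 to 132 CPM (median 41.4) in the other strains. Its neighbour NCU09167 had 9.56 and 0.194 CPM in OY329, against 4.02 to 213 CPM (median 68.8) in the other strains. For both, replicate 3 had 1 read, and NCU09167 did not clear the others in replicate 1. Some further falls rest on more reads. NCU09521 had 5.64 and 6.22 CPM in OY329, against 19.1 to 73.8 CPM (median 32.1) in the other strains. NCU03092 had 11.3 and 10.7 CPM in OY329, against 22.1 to 201 CPM (median 67.8) in the other strains. *cut-1* had 49.6 and 25.3 CPM in OY329, against 80.7 to 502 CPM (median 208) in the other strains. Each of them was called against all 6 strains. *gcy-1*, the gene next to *cut-1*, had 123 and 109 CPM in OY329, against 156 to 866 CPM (median 414) in the other strains, and a log2 fold change of −1.89.

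Genes that held higher were common in the inserted segment of LG VI, also outside the loss list. Breakpoint calls from the input DNA of OY329 placed the proximal junction at base 3451743 of LG VI and base 1737665 of LG III (7 split reads, 13 read pairs). The distal junction was at base 4200442 of LG VI and base 1737672 of LG III (4 split reads, 7 read pairs). Positions are on the corrected assembly of the study and bound a segment of 749 kb. Genes were placed in it by their RefSeq positions, on an assembly that may differ from the corrected one. The segment held 138 tested genes of 190 protein-coding RefSeq genes, and 128 of the 138 are not on the OY329 lists. Of the 128, 26 held higher (20.3%) and 3 held lower (2.34%), beside 7.76% and 10.8% of all unlisted genes and 6.55% and 12.2% of the 656 unlisted genes on the rest of LG VI. The median log2 fold change of the 138 genes was 0.41 (quartiles −0.12 and 1.31), against −0.01 on the rest of LG VI and 0.04 over all genes, and the 2 libraries gave 0.32 and 0.33. Leaving out genes within 50 kb of either breakpoint call gave 0.41, and leaving out the 10 loss-list genes gave 0.39.

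The shift of the segment depended on the strain it was set against. Over the unlisted genes the median was 0.11 against OY350, 0.21 against OY337, 0.41 against UK2-32, 0.47 against UK3-41, 0.62 against ALS159 and 0.77 against AR16. Each strain was also set against the mean of its 6 fellows, and the segment median was 0.41 in OY329, followed by 0.21 in OY350, 0.18 in OY337, 0.03 in UK2-32, −0.08 in UK3-41, −0.09 in ALS159 and −0.18 in AR16. Counts of genes outside the range of all other strains separated the strains more, with 29 above and 3 below in OY329, 15 and 13 in UK3-41, 16 and 23 in ALS159, 3 and 26 in AR16, 0 and 10 in UK2-32, 3 and 0 in OY350 and 5 and 0 in OY337, each of 138. Over all 8170 tested genes the counts were 648 above and 895 below in OY329, 1202 and 1158 in UK3-41 and 1007 and 1046 in ALS159. In AR16 they were 70 and 158, in UK2-32 397 and 462, in OY350 89 and 74 and in OY337 193 and 134. Beside these counts, the segment also stood out in AR16, for genes below the range. Segment genes had few reads, with a median of 14.3 CPM in the other strains, against 34.5 CPM over all genes, neither corrected for gene length. With at least 10 counts required in every library, 91 segment genes were left, with a median of 0.23 and 16 held higher.

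**Figure D4:**
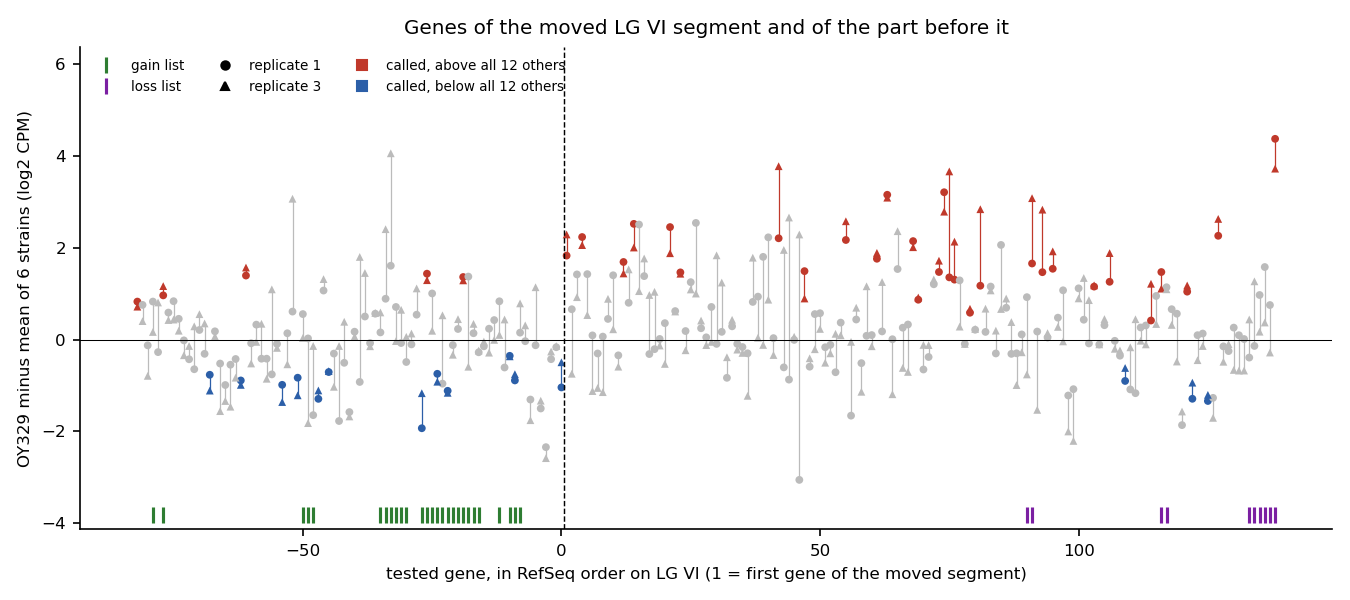
Tested genes in their order on LG VI, with the moved segment to the right of the dashed line. Each gene has a circle for OY329 replicate 1 and a triangle for replicate 3, as log2 CPM minus the mean of the 6 other strains, in red where it held higher and in blue where it held lower. Ticks mark genes of the OY329 gain list (green, before the breakpoint) and loss list (purple, towards the old chromosome end). Red pairs of symbols are spread through the segment, and the last tested gene lies at 4.37 and 3.72.

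Among the unlisted genes of the segment, NCU05126 had 243 and 721 CPM in OY329, against 2.35 to 220.0 CPM (median 80.0) in the other strains, with a log2 fold change of 3.15 ± 0.34 (SE, adjusted p = 0.000149). NCU05084 had 40.8 and 39.1 CPM in OY329, against 0 to 19.9 CPM (median 8.20) in the other strains, and was called against 2 of the 6 strains. Next to each other lie NCU05069 and NCU05068, which overlap, so that their reads may not be separated. NCU05069 had 75.1 and 56.0 CPM in OY329, against 0.370 to 36.3 CPM (median 9.37) in the other strains. NCU05068 had 27.1 and 135 CPM in OY329, against 4.94 to 22.2 CPM (median 10.6) in the other strains. NCU05113, NCU05148 and NCU05005 were each called against all 6 strains. NCU05113 had 11.1 and 14.8 CPM in OY329, against 0.375 to 6.24 CPM (median 3.05) in the other strains. NCU05148 had 56.9 and 38.3 CPM in OY329, against 2.47 to 18.4 CPM (median 13.3) in the other strains. NCU05005 had 37.8 and 48.8 CPM in OY329, against 1.21 to 17.3 CPM (median 11.3) in the other strains. All 3 cleared the others, with log2 fold changes of 2.51, 2.22 and 2.46. The 3 genes that held lower, NCU05027, NCU05010 and NCU05007, lie in the distal part of the segment. NCU05007 had 28.5 and 31.3 CPM in OY329, against 34.6 to 143 CPM (median 79.8) in the other strains, with a log2 fold change of −1.28. Of the 50 highest-ranked unlisted genes in the genome, 9 lie in the segment, which holds 1.69% of the tested genes, and of the 50 lowest-ranked 0 do.

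Genes at the ends of the segment differed among themselves. NCU05925, whose RefSeq position spans the proximal breakpoint call, had 11.8 and 17.3 CPM in OY329, against 19.1 to 31.9 CPM (median 23.6) in the other strains, and held lower (−0.78 ± 0.16, SE, adjusted p = 0.00312). NCU05926 just before it had 39.9 and 40.6 CPM in OY329, against 30.2 to 62.0 CPM (median 44.5) in the other strains, and was not called (adjusted p = 0.317). *cdh-2*, the first tested gene of the segment, had only 43 and 12 reads but held higher, with 1.64 and 2.33 CPM in OY329, against 0 to 0.875 CPM (median 0.306) in the other strains, and a log2 fold change of 2.64 ± 0.43 (SE, adjusted p = 0.000898). The last tested gene towards the former telomere, NCU04991, is on the OY329 loss list and had 93.1 and 59.3 CPM in OY329, against 1.91 to 18.2 CPM (median 3.53) in the other strains. The difference, 4.13 ± 0.21 (SE, adjusted p = 7.74e-06) on the log2 scale, was the highest of all genes named by the rule, and it was called against each of the 6 strains. At the insertion site on LG III, *met-8*, of methionine synthesis, had 1140.3 and 372 CPM in OY329, against 753 to 4539 CPM (median 2630.0) in the other strains, and was called lower (−1.63 ± 0.42, SE, adjusted p = 0.00934), though only replicate 3 lay below the range of the others, and the call was lost without replicate 3 (adjusted p = 0.0706). NCU06171 on the other side had 126 and 156 CPM in OY329, against 103 to 168 CPM (median 132) in the other strains, and was not called (adjusted p = 0.491). *trp-2*, a tryptophan gene that maps within the segment, had 139 and 74.6 CPM in OY329, against 55.7 to 85.2 CPM (median 73.9) in the other strains, and its call (log2 fold change 0.57) was lost without replicate 1 (adjusted p = 0.873).

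**Figure D5:**
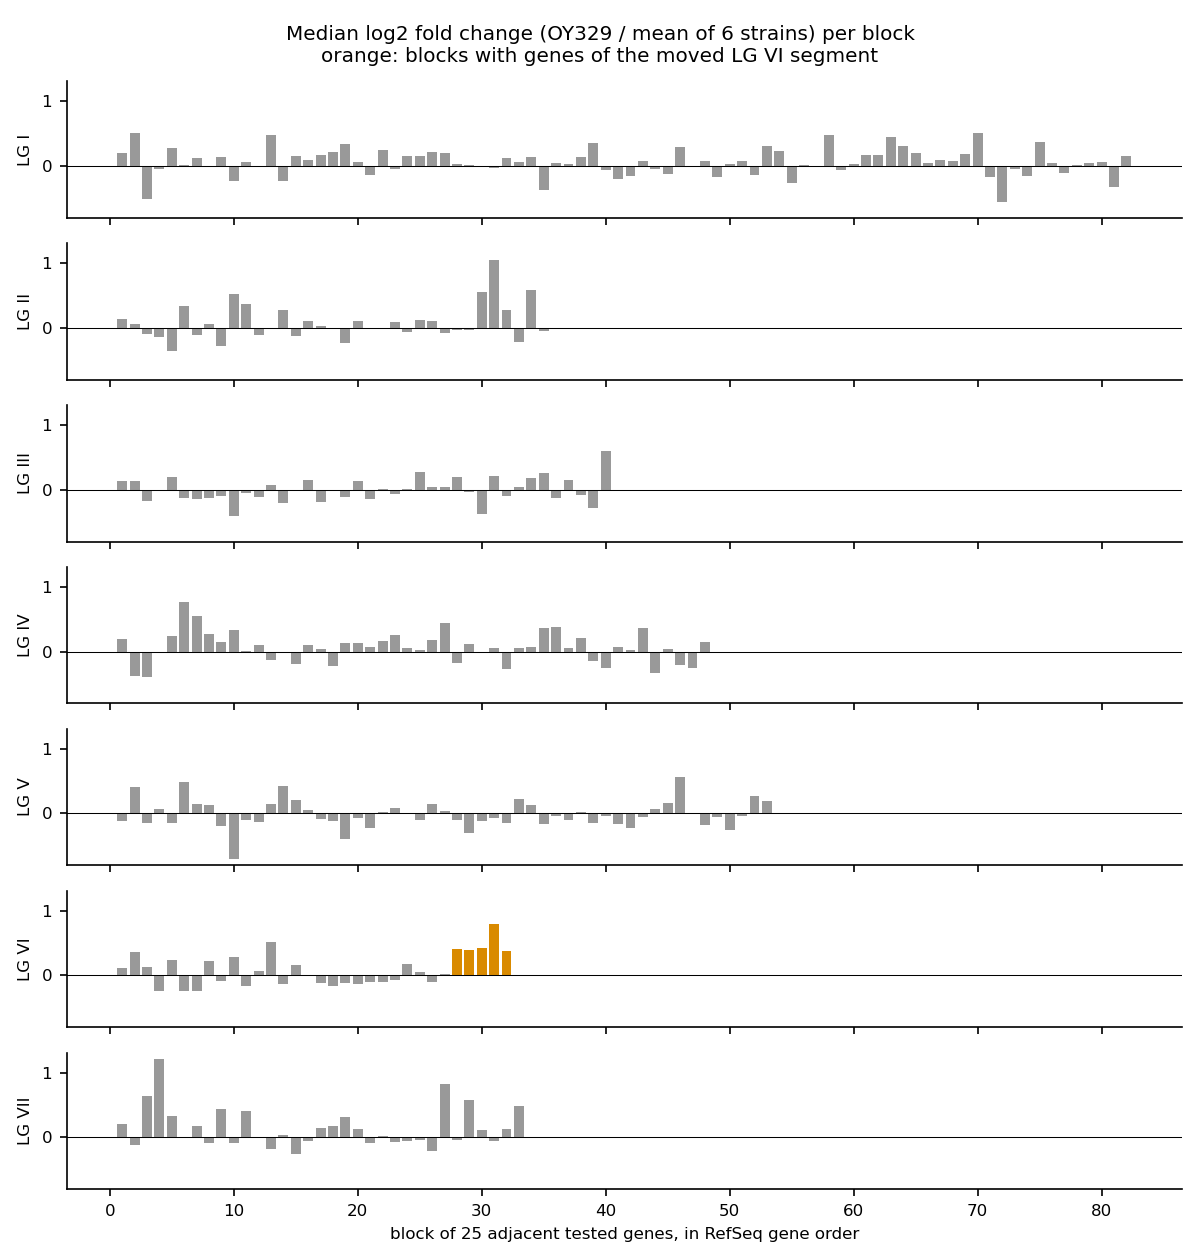
Median log2 fold change of OY329 against the mean of 6 strains in blocks of 25 adjacent tested genes, in gene order along each linkage group. Orange bars hold genes of the moved segment, and the other bars are grey. The 5 orange bars lie between 0.38 and 0.79, while full blocks on LG II (1.04) and LG VII (1.21 and 0.82) are higher.

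The segment was not the only stretch with higher medians. Of 323 blocks of 25 adjacent tested genes, whose medians ran from −0.71 to 1.21, 28 were above 0.4. Segment genes lay in 5 full blocks in a row, the first of which also held earlier genes, with medians of 0.41, 0.40, 0.42, 0.79 and 0.38, and the 2 blocks before it had 0.02 and −0.11. The final 21 genes, which form no full block, had −0.02. The final 20 genes of LG IV, from NCU05182 to NCU10037, had 1.81, with 2 that held higher. Over all tested genes 26.2% were called higher and 21.6% lower, and 7.8% held higher, beside which this count and those that follow stand. The highest full block, from NCU09029 to NCU09057 on LG VII, had 17 of 25 genes called higher and 1 lower, but only 4 held higher. Its median difference was 1.31 and 0.93 in OY329, against −1.25 in ALS159 replicate 1 to 1.00 in AR16 replicate 1, so OY329 replicate 3 did not clear the other strains. The block from NCU08733 to NCU08410 on LG II (1.04) did not clear them in replicate 1 (0.47, against up to 0.50). A further block on LG VII, from NCU02208 to NCU08133 (0.82), did clear them, with 0.41 and 0.49 in OY329 against −0.21 to 0.30. Whole linkage groups differed little, with medians from −0.03 on LG V to 0.13 on LG VII, and 0.04 on LG VI with the segment included.

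Genes named in the genotypes were read as a check on the labels. *matA-1*, the mating type gene of *mat A* strains, had 38 and 18 reads in OY329 (1.45 and 3.50 CPM), and 0 reads in both libraries of AR16, the *mat a* strain. It also had 0 reads in both libraries of UK2-32, although its listed genotype is *mat A*, and 27.4 and 27.2 CPM in UK3-41. The gene was called (log2 fold change 1.76 ± 0.64, SE, adjusted p = 0.049), but with UK2-32 left out of the mean its adjusted p was 0.339. *inl*, which the UK3-41 genotype carries as a mutation, had 160.2 and 83.0 CPM in OY329, against 65.5 to 1976 CPM (median 179) in the other strains with UK3-41 highest, and its call (adjusted p = 0.0218) was lost without UK3-41 in the mean (adjusted p = 0.208). Apart from counts with strains or libraries left out, each result that held was defined against all 12 libraries, UK2-32 included.

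Some genes differed widely between the 2 OY329 libraries. Of unlisted genes with at least 20 CPM in OY329 or in the other strains, 101 were over 4-fold apart between the OY329 replicates, 21 higher in replicate 1 and 80 higher in replicate 3. *gh28-1*, a polygalacturonase gene, had 51.9 and 2279.7 CPM in OY329, against 13.7 to 1293 CPM (median 171) in the other strains. *asd-1*, known from sexual development and encoding a rhamnogalacturonase, had 212 and 2318 CPM in OY329, against 54.8 to 1504 CPM (median 339) in the other strains. *app*, named for abundant perithecial protein, had 51.6 and 2.33 CPM in OY329, against 0.555 to 5.32 CPM (median 3.55) in the other strains. All 3 were called higher in the fit on both libraries (3.36, 2.27 and 3.35), but the calls of *gh28-1* and *asd-1* were lost without replicate 3 (adjusted p = 0.111 and 0.673) and that of *app* without replicate 1 (adjusted p = 0.767). Over all called genes, 61 of 3902 had the 2 libraries on opposite sides of the mean of the other strains.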

How the data were processed

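The data were poly-A+ mRNA-seq libraries of 7 *N. crassa* strains, 2 libraries each. Reads were counted per gene by the authors, and the whole-number counts were used as deposited. The submitters' notes name TopHat, SAMtools, HTSeq and DESeq for this series, and versions, annotation and strand setting are not given in the sources used here. Breakpoint calls were made by the authors with LUMPY from input DNA, and their positions and supporting reads were used as deposited. The score of each call (deposited by the authors, smaller is stronger) is not printed. The gain and loss table was used for its gene lists only. It also holds the authors' fold changes and p-values, which were not used, and 1 column of per-sample values of no library here.

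Summary lines (reads in no gene) were removed from library sizes and tests. Genes were filtered with filterByExpr by strain, scaled by TMM, and tested with edgeR 4.0.16 (R 4.3.3, limma 3.58.1) in a quasi-likelihood fit of all 14 libraries, OY329 against the mean of 6 strains, with Benjamini-Hochberg adjustment and a threshold of 0.05. CPM use TMM-scaled library sizes, log2 CPM a prior count of 2, and the SE is the log2 fold change divided by the square root of F. A gene "held" if it was called and both OY329 libraries lay beyond all 12 others. A library with 0 reads allows up to 3 reads, for counting error only. "Called against" a strain refers to the pairwise contrast in the same fit. The members, lists and tests were chosen with earlier results of these data known.

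Named genes were the 12 highest and 12 lowest ranked held unlisted genes, the 10 highest and 10 lowest with a symbol (mean of at least 5 CPM in OY329 or the other strains), up to 4 such genes of each list, genes next to breakpoint calls, and genes of the genotypes. Genes outside this rule (among them *vvd*, *wc-1*, *frq*, *con-8*, *cdt-1*, *arg-2*, *tim23*, *cyc-1*, *set-7*, *dmm-1*, NCU09167 and the genes that differ between OY329 libraries) were chosen after their values were seen. The 30 lists were drawn from RefSeq symbols, since product names were not in the table used. RefSeq (assembly NC12) gave symbols, linkage groups, gene order and overlaps, and 9729 of 9730 genes matched. The fit was tested on simulated counts. Alternatives were DESeq2 1.42.0, scaling by total counts, other count filters, a replicate block, and leaving out each library, each strain, or ALS159 and UK3-41 together. The last of these was chosen after seeing the data. The numbers shared by replicates were not treated as pairs, since deviations of same-numbered libraries correlated at −0.31 to 0.39 over 21 strain pairs, with 4 above 0.1.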

Additional observations from a re-analysis of the deposited data

How the results depend on the processing

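With DESeq2 the number of genes higher in OY329 was 2186 and that of genes lower in OY329 was 1823, with 673 and 844 that held. Scaling by total counts gave 1400 higher and 2584 lower, 293 and 1303 that held, and a segment median of 0.20, after a shift of the median of all genes to −0.19. Requiring 10 counts in every library gave a segment median of 0.23, over fewer genes of the segment. Without ALS159 and UK3-41 in the mean, 1264 genes were higher. With single strains out of the mean the segment median was 0.50 without ALS159, 0.30 without AR16, 0.50 without OY337, 0.59 without OY350, 0.49 without UK2-32 and 0.55 without UK3-41. Leaving out 1 library at a time gave 1759 to 2359 genes higher, 1447 to 1834 lower, 624 to 1259 that held higher, 877 to 1233 that held lower and a segment median of 0.31 to 0.51. The highest counts of genes that held came without an OY329 library, when only 1 library has to lie beyond the others. A replicate block gave 1557 higher, 1424 lower, 544 and 721 that held and a segment median of 0.40. OY329 replicate 3 has no partner of its number, so the block rests on replicate 1. Of 99 named genes that were called, 79 were called under all 26 alternatives, 20 lost the call under at least 1, and 0 reversed. The shallow library sets the precision of low genes, since 3 reads are 0.583 CPM there.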

Other observations

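Some genes were on in OY329 and nearly off in other strains, or the reverse, without fitting the contrast with the mean of 6 strains. These were picked after their values were seen. NCU06420 had 3 and 1 reads in OY329, and 0 reads in all libraries of ALS159 and OY337, against at least 838 reads in each library of AR16, OY350, UK2-32 and UK3-41. NCU09775 had 5001 and 7130 reads in OY329, which is 190 and 1386 CPM, against 1 to 2 reads in ALS159 and UK3-41 and 244 to 3820 reads in the other strains. Neither pattern was tested.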
